A study of Rattus norvegicus with 3 samples.

Results

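The genes described here are 10 named genes of B cell development, given as a list of names: Dntt, Rag1, Rag2, Vpreb1, Vpreb3, Igll1, Ebf1, Pax5, Ms4a1 and Fcer2. All 10 were found in each of the 3 libraries, each on 1 identifier, among 19241 gene names in sham, 19665 in UAC and 19725 in UAC with miR-330, or 20896 names in all. They were followed over 52 clusters of cells from the mandibular condyle of the rat temporomandibular joint (TMJ). B cells arise in bone marrow, where progenitors join the gene segments of the immunoglobulin heavy chain with the RAG recombinase while terminal transferase adds bases at the joints. A successful heavy chain pairs with the surrogate light chain to form the pre-B receptor, the cells divide, and recombination then starts again at the light chain genes. Ebf1 and Pax5 hold the cells in the B lineage throughout, and the surface proteins Ms4a1 (CD20) and Fcer2 (CD23) come late, Fcer2 mainly on mature cells outside the progenitor pool.

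The cells came from SD rats, labelled wild type, and each library pooled 16 condyles of 8 rats. The sham group received Vector AAV, an empty adeno-associated virus, by injection into the joint. The UAC group carried the unilateral anterior crossbite, a dental device that alters the bite, and received the same Vector AAV, and the third group carried UAC and received miR-330 AAV; the methods of the study give 8 weeks. The labels title the libraries only as control, UAC establishment and UAC treatment groups and give AAV injection for all, so the agent of each, miR-330 AAV in the treatment group included, was taken from the methods. Age and sex are not given, injection into a joint does not limit the virus to 1 cell type, and all animals of a condition are in 1 library, so no difference between libraries has a replicate check.

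The labels call the cells "chondrocytes, osteoclast", and most of the RNA came from other cells. Clusters were sorted on 10 pan-B genes that include no member of the list (Cd79b, Cd22, Blnk and others): a B-marker cluster had 5 or more of them at 50 CPM or above that were also 4-fold above the average of the gene's 3 lowest clusters. CPM are counts of unique molecular identifiers (UMIs) per 1000000 UMIs of the same cluster or library, and all intervals are exact 95% intervals that cover counting error only. By this rule 10 of 15 clusters in sham, 10 of 18 in UAC and 12 of 19 in UAC with miR-330 were B-marker clusters. They held 72.0% of 77668015 UMIs in sham, 65.3% of 92629658 in UAC and 71.2% of 97255383 in UAC with miR-330. These are shares of RNA: cells were not counted in the files, and fewer cells of a type and less RNA per cell cannot be told apart. The share of UAC with miR-330 includes miR-330 5, at 2.92% of UMIs. Its closest matches, UAC 13 at 3.69% and sham 14 at 1.99%, are not B-marker clusters. An 8-gene chondrocyte list summed to 4502, 1920 and 2168 CPM over the whole libraries, and it was highest in sham 12, UAC 16 and miR-330 17, all outside the B-marker clusters.

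Within each library the B-marker clusters were ordered by a maturity index, the mean log2(CPM + 1) of 13 late genes (Cr2, Cxcr5, Ccr7, the class II genes and others) minus that of 7 early genes (Lef1, Myb, Erg, Arpp21, Kit, Flt3, Cd93), again without any member. The order had the same outline in all 3 libraries. At the bottom stood 1 cluster far below the rest (sham 11 at -2.89, UAC 15 at -3.38, miR-330 14 at -4.07), followed by a large cluster (sham 13 at -1.71, UAC 11 at -1.80, miR-330 11 at -2.11). Then came a group of 7, 6 and 8 clusters packed between -0.10 and 0.77, -0.16 and 0.50, and -0.64 and 0.69, whose order within the group is weak: by the late list alone 4 of 10, 2 of 10 and 5 of 12 clusters kept their rank. At the top stood sham 1 at 3.89, UAC 2 at 3.90 and miR-330 2 at 3.81, and above these, in the UAC libraries alone, UAC 14 at 5.02 and miR-330 8 at 5.96. The lowest cluster held 4.88%, 3.56% and 3.71% of the UMIs of its library, the next 14.6%, 14.9% and 15.8%, and the clusters above an index of 3 held 8.04%, 9.80% and 10.7%. Of the last, sham 1, UAC 2 and miR-330 2 held 8.04%, 7.29% and 7.53%, and UAC 14 and miR-330 8 held 2.51% and 3.18%.

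Clusters were made separately in each library, so their numbers differ, and their profiles paired up only in part. In the middle group UAC 10 and UAC 4 both had sham 9 as best match, and UAC 1 and UAC 6 both had sham 2. Over 11724 genes the lowest clusters were each other's best match, with a Pearson correlation of log2(CPM + 1) of 0.978 between UAC and sham and 0.974 between the UAC libraries. UAC 14 and miR-330 8 matched each other at 0.975, whereas the best match of UAC 14 in sham was sham 1 at 0.926, and that match was not mutual. Clusters of 1 library share its depth and its background RNA, so these correlations are descriptions.

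**Figure D1:**
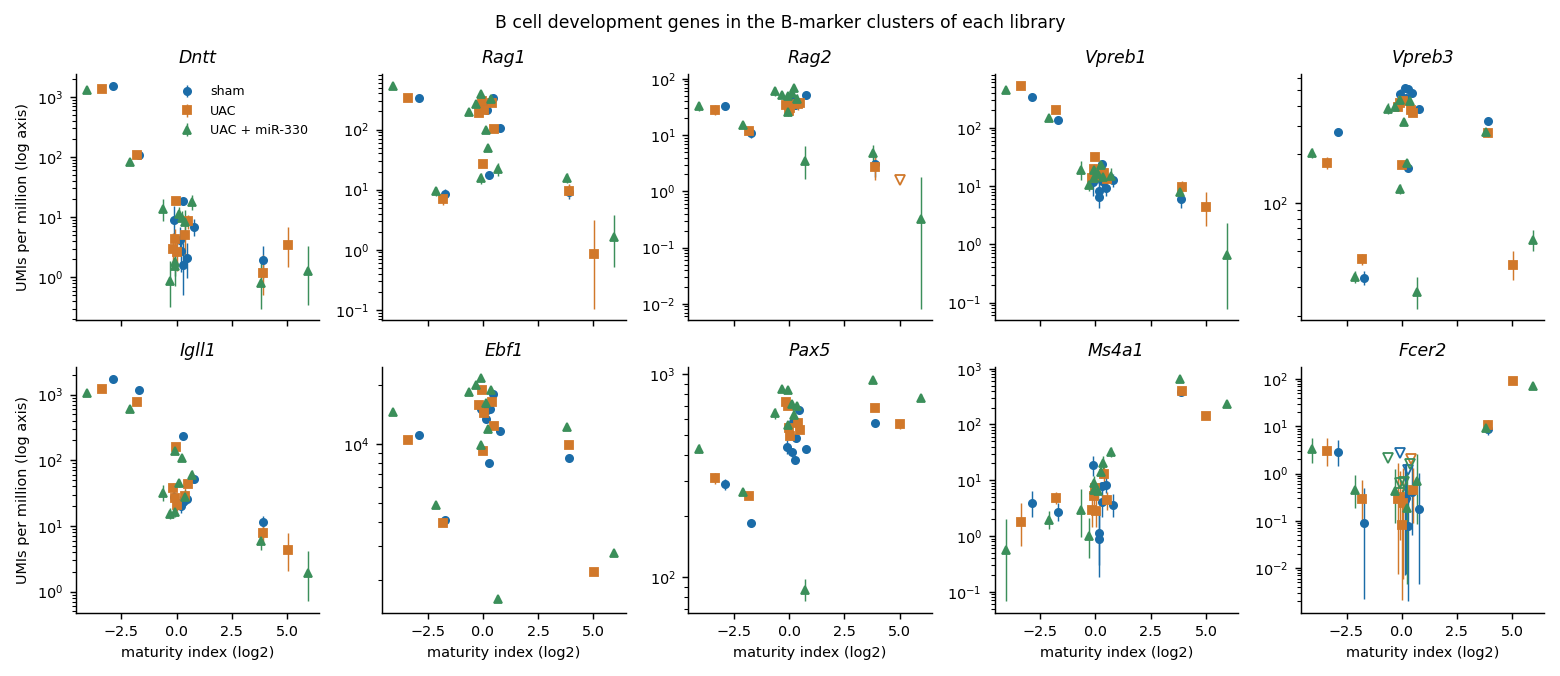
Level of each of the 10 genes (CPM, log axis) in every B-marker cluster against the maturity index of the cluster, by library. Bars are Poisson 95% intervals from counting alone, and open triangles mark the upper limit where a gene had 0 UMIs.

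The recombination genes come first in development. Dntt encodes terminal deoxynucleotidyl transferase, which adds bases at the joints. It stood at 1522 CPM (1483 to 1562) in sham 11, 1329 in UAC 15 and 1322 in miR-330 14, and at 109, 109 and 83.0 CPM in the next cluster of the order. The lowest cluster thus held 77.4%, 68.7% and 75.1% of all Dntt UMIs of its library. Dntt is the member most tightly held to the bottom of the order: beyond these 2 clusters no B-marker cluster of any library was above 18.7 CPM.

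Rag1 and Rag2 encode the 2 subunits of the recombinase and are neighbours in the genome. Rag1 had 2 peaks along the order, in the lowest cluster at 336 (317 to 355), 337 and 523 CPM, and again among the middle clusters, at 340 CPM (324 to 357) in sham 2, 294 in UAC 1 and 395 in miR-330 1. Between the peaks it was at 8.38 CPM (6.78 to 10.2) in the next cluster of sham, 6.98 in that of UAC and 9.40 in that of UAC with miR-330. In sham the peaks were not apart by their intervals, while in both UAC libraries the lowest cluster was the higher. The dip fell on clusters high in genes of division: a 10-gene cycling list (Mki67, Top2a, Cdk1 and others) summed to 2649, 2584 and 3738 CPM in those clusters against 133, 171 and 174 CPM in the lowest ones. The 10 leading genes of these clusters held none of the listed B cell genes and included Car1 and Pklr in all 3 libraries, genes known from red cell precursors and named after their values were seen, so what cells they hold is uncertain. Listed erythroid genes were at 463, 1457 and 2937 CPM, and their pan-B genes summed to only 2991, 3376 and 3028 CPM against 11393, 10844 and 10739 CPM in sham 2, UAC 1 and miR-330 1, and the part of either in the dip was not tested. In the late clusters sham 1, UAC 2 and miR-330 2, Rag1 was at 9.13, 9.62 and 15.8 CPM. Outside the B-marker clusters Rag1 was at 5.93, 3.73 and 4.25 CPM, and at most at 14.8, 6.37 and 5.60 CPM in a cluster. How much of its low levels came from the cells of these clusters was not tested.

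Rag2 varied less. It stood at 33.0 CPM (27.5 to 39.3), 28.5 and 32.7 CPM in the lowest cluster and at 10.8, 11.9 and 15.1 CPM in the next. Its highest values, 51.1 CPM in sham 5, 37.3 in UAC 3 and 69.9 in miR-330 12, were not apart from those of the next cluster by level. At the top of the order it was nearly gone, at 3.04, 2.66 and 4.78 CPM in sham 1, UAC 2 and miR-330 2. UAC 14 had 0 UMIs of Rag2, fewer than the 3 UMIs taken as the floor of detection, and miR-330 8 had 1 UMI.

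The balance of the pair followed the cell cycle list. Of the UMIs of Rag1 and Rag2 together, Rag1 made up 33.5% to 49.2% (median 38.4%) in the 7 B-marker clusters with the cycling list at 1000 CPM or more. The 7 include sham 13, UAC 11 and miR-330 11, where Rag1 was at only 8.38, 6.98 and 9.40 CPM. In the 23 other clusters with at least 50 UMIs of the pair it made up 64.1% to 94.1% (median 86.1%), so the groups did not overlap; the line at 1000 CPM was drawn after the values were seen. The lowest shares outside the cycling group belonged to miR-330 7 at 64.1% (60.8% to 67.3%), sham 5 at 67.7% and UAC 3 at 73.6%, with cycling lists of 323, 247 and 173 CPM. The cluster with the highest list outside the cycling group, miR-330 5 at 583 CPM, had a share of 86.1% (75.9% to 93.1%), on 62 UMIs of Rag1 and 10 of Rag2. In the cycling middle clusters the change was on the side of Rag1, at 17.4 CPM in sham 3, 26.6 in UAC 5 and 15.7 and 49.5 in miR-330 16 and 12, while Rag2 there was at 34.5, 27.4, 26.2 and 69.9 CPM. Over the whole libraries the Rag1 share was 80.6%, 81.6% and 81.2%, nearly the same in the 3 conditions. These are 3' UMIs, so a share is read between clusters and not as 1 gene being higher than the other.

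**Figure D2:**
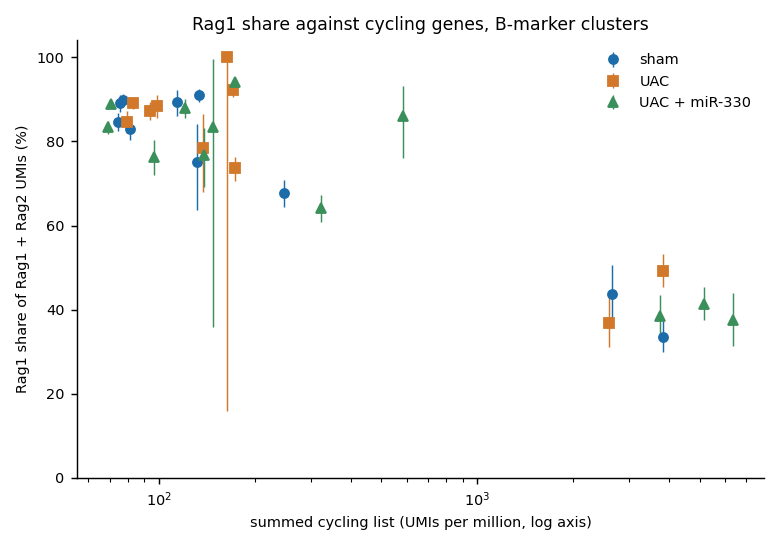
Share of Rag1 in the UMIs of Rag1 and Rag2 together in each B-marker cluster, against the summed cycling list (CPM, log axis). Bars are binomial 95% intervals.

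Igll1 and Vpreb1 encode the parts of the surrogate light chain, which pairs with the heavy chain in the pre-B receptor. Igll1 stood at 1750 CPM (1708 to 1793) in sham 11, 1232 in UAC 15 and 1065 in miR-330 14. Unlike Dntt it stayed high in the next cluster, at 1166, 758 and 611 CPM. It also remained above its neighbours in the dividing clusters of the middle group, at 231 CPM in sham 3, 159 in UAC 5 and 136 and 107 in miR-330 16 and 12. In the late clusters it was at 11.4, 7.70 and 5.87 CPM.

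Vpreb1 followed the same course at 340 CPM (322 to 359), 513 and 438 CPM in the lowest cluster and 135, 202 and 145 CPM in the next. Vpreb1 has a near copy, Vpreb2, and reads of the copies may be split or dropped by the counting, so both levels are uncertain. Vpreb2 stood at 1673 CPM in sham 11, 1022 in UAC 15 and 823 in miR-330 14. The copies moved apart between libraries: Vpreb1 made up 16.9% (16.0% to 17.7%), 33.4% and 34.7% of their joint UMIs in the lowest cluster, and 16.0%, 34.1% and 33.5% in the next. Their sum does not depend on how reads were split between the copies, but it misses any that were dropped. As counted, it was 2013, 1535 and 1262 CPM in the lowest cluster and 251, 162 and 129 CPM over the whole libraries. The counted sum was highest in sham while Vpreb1 alone was lowest there. Why the split differed, and whether dropped reads differed between libraries, was not tested.

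Vpreb3, a related protein that binds newly made heavy chains inside the cell, followed another course. It was at 276 CPM (259 to 293), 177 and 205 CPM in the lowest cluster and only 34.2, 44.7 and 34.7 CPM in the next. The middle group then carried its highest values, 514 CPM in sham 6, 432 in UAC 4 and 439 in miR-330 1, none apart from the cluster behind it. It remained at 323, 271 and 274 CPM in the late clusters sham 1, UAC 2 and miR-330 2, but at 41.3 and 58.8 CPM in UAC 14 and miR-330 8. Over the 32 B-marker clusters its correlation with Ebf1 was 0.92, whereas Vpreb1 followed Igll1 (0.94) and Dntt (0.93); clusters of a library share depth and background, and correlations are of log2(CPM + 1).

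The transcription factors of the B lineage were present at every step. Ebf1, which opens the B program, stood at 11083 CPM (10977.5 to 11189.9), 10431 and 14505 CPM in the lowest cluster and 4062, 3924 and 4879 CPM in the next. Its highest levels were 17867 CPM in sham 2, 18933 in UAC 1 and 21639 in miR-330 1, the middle clusters in which Rag1 had its later peak. It was at 8433, 9899 and 12124 CPM in sham 1, UAC 2 and miR-330 2, and at only 2217 and 2776 CPM in UAC 14 and miR-330 8.

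Pax5, which keeps B cells committed, was lower in the 2 clusters at the bottom of the order than in most others and stayed high to its top. It stood at 287 CPM (271 to 305), 308 and 429 CPM in the lowest cluster and 185, 253 and 263 CPM in the next. It was at 574, 686 and 939 CPM in sham 1, UAC 2 and miR-330 2, near or at its highest values of 668 CPM in sham 2, 727 in UAC 10 (not apart from UAC 1) and 939 in miR-330 2. In UAC 14 and miR-330 8 it was still at 566 and 769 CPM, where Ebf1 was low. These clusters also carried dendritic cell genes, given with the other markers of other cells, so their place above the rest is not read as a later step of B cells.

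Ms4a1, the membrane protein CD20, marked the top. It stood at 383 CPM (368 to 399) in sham 1, 403 in UAC 2 and 667 in miR-330 2, and at 140 and 232 CPM in UAC 14 and miR-330 8. In the lowest cluster it was at 3.96, 1.82 and 0.555 CPM, and the highest value in any B-marker cluster below the top was 32.4 CPM, in miR-330 5. Fcer2, the low-affinity IgE receptor, had only 74 UMIs in sham, 319 in UAC and 325 in UAC with miR-330. It stood at 8.81 CPM (6.63 to 11.5), 10.8 and 9.15 CPM in sham 1, UAC 2 and miR-330 2, which did not differ beyond counting error. In UAC 14 it was at 93.4 CPM (81.4 to 107) and in miR-330 8 at 73.1 CPM (63.8 to 83.2), whereas sham 1 was the highest of all sham clusters.

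Several B-marker clusters also carried genes of other cells, whose part in these levels was not tested. In the lowest clusters all 4 listed endothelial genes together were at 124, 138 and 141 CPM, mostly Egfl7 at 123, 116 and 79.1 CPM, with 2 of 4 at 0 in sham; UAC 15 and miR-330 14 are held uncertain because Emcn, of that list, was among their 10 leading genes and no listed B cell gene was. Other genes known from endothelium, named after their values were seen, were among the 10 as well, Adgrl4 in both and Aplnr, Sox17 and Ptprb in miR-330 14, and none of these was among those of sham 11. Of the 6 erythroid genes of the next clusters none was at 0, and most of the sum was Hba-a1 at 263, 1001 and 1988 CPM. UAC 14 and miR-330 8 carried a list of 7 dendritic cell genes at 1933 and 1329 CPM, mostly Tcf4 at 1087 and 761 CPM, a gene that was as high in the lowest clusters at 1048, 1202 and 1581 CPM. Of this list, Irf8 at 476 and 357 CPM and Siglech at 118 and 50.4 CPM set UAC 14 and miR-330 8 apart from the other B-marker clusters. Flt3 was at 246 and 160 CPM there, but also at 126 and 103.8 CPM in UAC 15 and miR-330 14. Clec9a was at 4.73 and 0.646 CPM, Cd209a at 1.29 and 0.323 CPM and Xcr1 at 0. Kdr, of the endothelial list, was also highest among the B-marker clusters in UAC 14 and miR-330 8, at 36.1 and 27.8 CPM. The order places miR-330 5 within the middle group, yet its erythroid list was at 68156 CPM and its plasma cell list at 3919 CPM, and Ebf1 and Pax5 were at their lowest there, at 1610 and 86.7 CPM.

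Outside the B-marker clusters, 7 of the 10 members had 3 UMIs or more in each of the 20 clusters, while Fcer2 was under 3 UMIs in 19, Rag2 in 9 and Vpreb1 in 2. Their UMIs there made up 0.955% (Igll1) to 2.11% (Ms4a1) of each total in sham, 1.07% (Igll1) to 3.94% (Ms4a1) in UAC and 0.593% (Igll1) to 2.15% (Fcer2) in UAC with miR-330. For the pan-B gene Cd79b the same share was 2.27%, 3.09% and 1.74%. Ebf1, the most counted member, was at 238 to 784 CPM in the other clusters of sham, 219 to 533 in UAC and 194 to 412 in UAC with miR-330. For each UMI of Cd79b there were 9.0, 7.87 and 12.2 UMIs of Ebf1 outside the B-marker clusters and 12.7, 15.6 and 22.2 inside. The source of the RNA outside was not tested.

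Between conditions, UAC was set against sham to ask about the crossbite, and UAC with miR-330 against UAC to ask about the added microRNA; both comparisons use the same UAC library. A 10-gene neutrophil list, the largest of the other cell types, summed to 38701, 59543 and 42064 CPM in sham, UAC and UAC with miR-330, mostly S100a9 at 20766, 33370.3 and 23125 CPM with no gene at 0, and its part in the levels over all clusters was not tested. A gene was called where its CPM differed past 1.5-fold with intervals apart, provided that its UMIs in the compared libraries came to 50 or more. In UAC against sham over all clusters, 1 of 10 members was called higher and 1 lower, where 6.02% of 14235 genes were called higher and 5.11% lower. In UAC with miR-330 against UAC, 2 were called higher and 0 lower, where 9.93% of 14485 genes were higher and 2.91% lower. Within the B-marker clusters alone, UAC against sham had 1 member higher and 0 lower (4.93% of 12851 genes higher, 1.42% lower), and UAC with miR-330 against UAC had 1 higher and 0 lower (8.25% of 13224 genes higher, 3.08% lower). With 10 members, counts this small lie near the share called among all genes. The median log2 ratio of the members over all clusters was -0.26 and 0.23, beside -0.02 and 0.13 over all genes tested, and -0.12 and 0.11 within the B-marker clusters, beside 0.06 and 0.08.

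Fcer2 was the member called higher in UAC than in sham. Over all clusters it was at 0.953 CPM in sham, 3.44 in UAC and 3.34 in UAC with miR-330, a log2 ratio of 1.85 for UAC against sham and -0.04 for the UAC libraries. Within the B-marker clusters it was at 1.31, 5.16 and 4.59 CPM (log2 1.98 for UAC against sham). Both UAC libraries were thus above sham and close to each other. This call rests on UAC 14: without the clusters with Siglech at 30 CPM or more, an alternative chosen after the values were seen, the log2 ratio was 0.32 and no member was called higher.

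Igll1 was the member called lower in UAC than in sham over all clusters. It was at 306 CPM (302 to 310) in sham, 188 in UAC and 159 in UAC with miR-330, a log2 ratio of -0.71 for UAC against sham and -0.23 for the UAC libraries. Within the B-marker clusters it was at 421, 284 and 223 CPM, and UAC against sham, at -0.57, was short of the 1.5-fold line. Igll1 was highest in sham and lowest in UAC with miR-330 in each of these sums, and also in the 2 lowest clusters of the order. With the deposited means unscaled, or at a 2-fold line, it was not called over all clusters, whereas within the B-marker clusters it was called lower without the cluster highest in cycling genes, and without those with Klf1 at 30 CPM or more.

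Dntt was at 95.9, 69.0 and 65.2 CPM over all clusters. The lowest cluster, its main site, held less of the RNA in the UAC libraries. Within that cluster Dntt was at 1522 CPM (1483 to 1562), 1329 CPM (1290 to 1369) and 1322 CPM. The part of either in the totals was not tested. No call was made for Dntt (log2 -0.48 and -0.08). Without UAC 15, miR-330 14 and sham 5, the clusters whose 10 leading genes held more listed markers of another cell type than of B cells, Dntt was called lower at a log2 of -2.16 and Igll1 at -1.01, because this leaves out the lowest cluster of the UAC libraries and not that of sham.

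Ms4a1 and Rag2 were the members called higher with miR-330 AAV. Ms4a1 was at 34.8 CPM in sham, 37.3 in UAC and 62.8 in UAC with miR-330, a log2 ratio of 0.75 for UAC with miR-330 against UAC, and of 0.66 within the B-marker clusters, where it was at 47.3, 54.8 and 86.8 CPM. Rag2 was at 21.4, 15.2 and 23.5 CPM, a log2 ratio of 0.62, and at 29.3, 23.0 and 32.6 CPM within the B-marker clusters, where its ratio of 0.51 was not called. Rag2 with miR-330 AAV was thus close to sham, while Ms4a1 was above both other libraries. At a 2-fold line neither was called. Without the most cycling cluster of each library Rag2 but not Ms4a1 was called within the B-marker clusters. That alternative leaves out UAC 5 and miR-330 16. It keeps miR-330 12, the mutual best match of UAC 5, with a cycling list of 5141 CPM, so unlike clusters are compared. With unscaled means Rag1, Ebf1 and Pax5 were called higher as well, 5 members in all. Of all 14485 genes, 3822 were then called higher, against 1438 in the main setting. Rag1, at 88.9, 67.5 and 101 CPM, had the same order as Rag2 and fell just short of the 1.5-fold line at a log2 of 0.58.

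Of the remaining members, Pax5 was at 298, 332 and 437 CPM over all clusters and Ebf1 at 7313, 6739 and 8904 CPM, with log2 ratios of 0.40 each for UAC with miR-330 against UAC. Vpreb1 was at 44.1, 57.9 and 46.5 CPM and Vpreb3 at 204, 155 and 161 CPM. None of the 4 was called in either comparison.

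**Figure D3:**
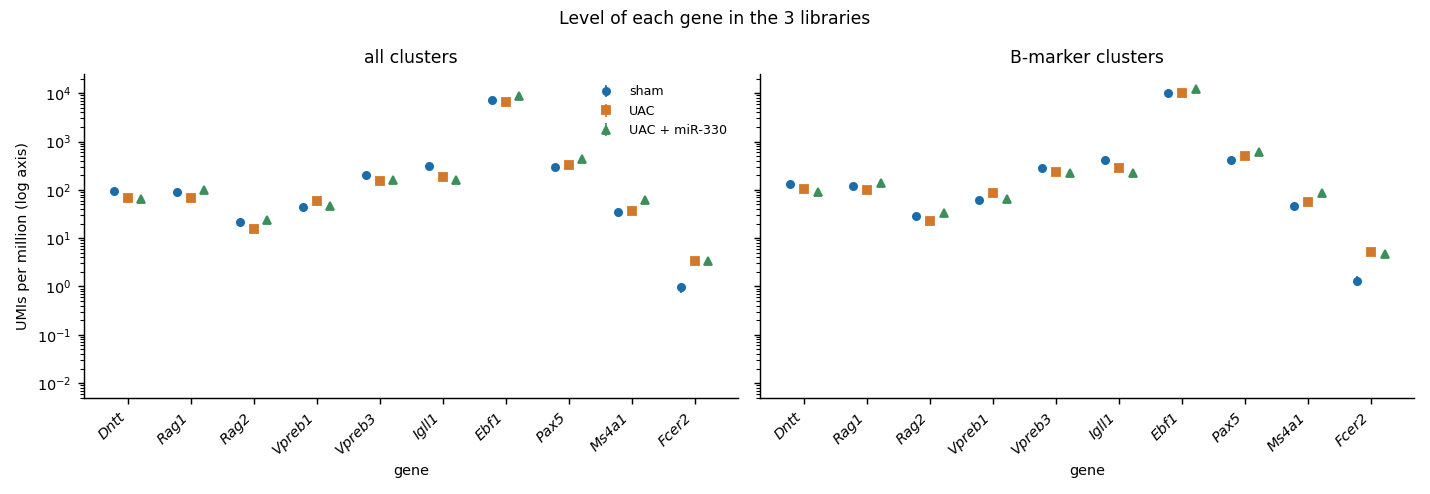
Level of each of the 10 genes in each library (CPM, log axis), over all clusters and over the B-marker clusters alone. Intervals are from counting alone, with 1 library per condition.

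The lowest cluster was also compared by itself, a comparison added after the values were seen, where 8 members had enough UMIs. In UAC against sham Vpreb1 was called higher (340 CPM in sham and 513 in UAC, log2 0.59) and Vpreb3 lower (276 and 177 CPM, log2 -0.64), where 3.48% of 8344 genes were higher and 1.62% lower. In UAC with miR-330 against UAC, Rag1 was called higher (337 CPM in UAC and 523 in UAC with miR-330, log2 0.63) and none lower, where 9.6% of 8460 genes were higher and 3.64% lower. These clusters are uncertain in both UAC libraries, and markers of other cells differed between them as well. Emcn was at 0.792, 13.0 and 29.96 CPM, Kdr at 0, 7.27 and 19.4 CPM and Cdh5 at 0, 1.82 and 12.2 CPM. Egfl7, the most abundant of the endothelial list, went the other way at 123, 116 and 79.1 CPM, and the list summed to 124, 138 and 141 CPM. Irf8 was at 6.87, 30.9 and 69.1 CPM and Flt3 at 30.9, 126 and 103.8 CPM. Their part in the calls was not tested. The call on Vpreb1 concerns 1 of the near copies, whose counted sum moved the other way. Dntt, Rag2, Ebf1, Pax5 and Igll1 were not called in this cluster in either comparison.

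The next cluster was compared in the same way, also after the values were seen, with 9 members that had enough UMIs. In UAC against sham Igll1 was called lower (1166 CPM in sham and 758 in UAC, log2 -0.62) and none higher, where 4.8% of 10451 genes were higher and 0.861% lower. In UAC with miR-330 against UAC, Ms4a1 was called lower (4.8 CPM in UAC and 2.0 in UAC with miR-330, on 66 and 30 UMIs, log2 -1.28) and none higher, where 11.9% of 10808 genes were higher and 2.28% lower. Outside the B-marker clusters Ms4a1 was at 4.23 CPM in UAC and 3.39 CPM in UAC with miR-330. The levels of the next cluster lie near these, so this call cannot show how Ms4a1 moved in B cells. Markers of other cells differed between these clusters as well. The erythroid list was at 463, 1457 and 2937 CPM and Klf1 at 38.6, 61.5 and 81.8 CPM, while Cd79b was at 205, 195 and 140 CPM. Their part in the calls was not tested.

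Genes that act with the members were counted by the same rule. Of 15 transcription factors and regulators of B cells, 3 were called higher in UAC than in sham over all clusters (Irf8, Klf2, Prdm1) and 0 lower, and 1 higher with miR-330 AAV (Xbp1), beside 6.02% and 9.93% of all genes higher. Within the B-marker clusters only Irf8 was called in UAC against sham, at 23.7, 47.7 and 46.9 CPM. Its highest level was in UAC 14, at 476 CPM. Xbp1 and Prdm1 were called higher there with miR-330 AAV. Of all genes, 4.93% and 8.25% were higher in these comparisons. Prdm1 was highest in miR-330 5, at 103.7 CPM against a median of 3.73 CPM over the B-marker clusters of that library, and the best matches of miR-330 5, UAC 13 and sham 14, are not B-marker clusters, so that cluster enters the sum in 1 library alone. Of the 13 late genes of the index, 6 were called higher in UAC than in sham over all clusters and 7 within the B-marker clusters. With miR-330 AAV 4 and 2 were called higher, and none was lower in either comparison. Of the 7 early genes, 2 (Kit, Flt3) were higher in UAC in both sums, and 2 and 1 were higher with miR-330 AAV, with none lower. Of all genes, 6.02% and 4.93% were higher in UAC, and 9.93% and 8.25% with miR-330 AAV. UAC 14, with its dendritic cell genes, had the highest sum of the late genes in UAC, 23436 CPM against 11939 CPM in UAC 2 and 13593 CPM in sham 1, and its part in these calls was not tested. None of 10 genes of pre-B and B receptor signaling, such as Syk, Btk and Blk, was called in any of these comparisons. Along the order, Blk, a kinase of the receptor, was at 25.4, 24.5 and 30.2 CPM in the lowest cluster and 378, 487 and 567 CPM in sham 1, UAC 2 and miR-330 2. Ikzf3, a factor that limits division after the pre-B receptor, was at 134, 64.2 and 41.6 CPM in the lowest cluster and 1978, 2302 and 2216 CPM in those late clusters, and Bach2 was highest at 8022, 8400 and 10340.0 CPM in the clusters in which Ebf1 was highest.

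Cxcl12 and Il7, the factors that hold and feed B progenitors in marrow, had few UMIs in any library. Cxcl12 was at 0.438, 0.248 and 0.422 CPM and Il7 at 0.296, 0.367 and 0.576 CPM. Of the 7 of 8 niche genes with enough UMIs, Tnfsf13b, Igf1 and Vcam1 were called lower in UAC than in sham and Igf1 and Vcam1 higher with miR-330 AAV, beside 5.11% of all genes lower and 9.93% higher. Vcam1 was at 8.15, 1.38 and 3.55 CPM. In sham these genes were highest in other cells, Vcam1 at 160.4 and Igf1 at 53.8 CPM in sham 15, where a 9-gene macrophage list was at 2899 CPM, and Tnfsf13b at 13.1 CPM in sham 12, the cluster highest in chondrocyte genes. Within the B-marker clusters 3 niche genes had enough UMIs in UAC against sham and 4 in UAC with miR-330 against UAC. Kitlg was called higher in UAC than in sham, beside 4.93% of all genes, with its highest level in UAC 15 at 9.70 CPM, and Igf1 and Vcam1 higher with miR-330 AAV, beside 8.25%, both with their highest level in miR-330 5, at 14.1 and 39.1 CPM.

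Outside the fixed lists, the genes most like each member over all 52 clusters were sought, with the other members left out. The search used the 11724 genes that had 100 UMIs or more in each library. Among these, Vpreb1 and Igll1 were most like Vpreb2 (correlations 0.94 and 0.97), and Adgrg1 came next for both (0.94 and 0.95). Vpreb1 and Igll1 correlated with each other at 0.954, above Vpreb1 with Vpreb2 at 0.937. Ebf1 was most like Blnk (0.99), the adaptor of the receptor and 1 of the pan-B genes that chose the clusters, and Vpreb3 most like AC134759.1 (0.98). Dntt was most like Flrt1 (0.91), Rag1 like Trhde (0.93), Rag2 like Ccdc187 (0.96), Pax5 like Parm1 (0.98) and Ms4a1 like Ccr6 (0.80), the lowest of these. Fcer2 had too few UMIs in sham for the same search.

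Dntt, Vpreb1 and Igll1 shared the bottom of the order, so the promoter windows of the members (RefSeq, build GRCr8, 250 bases before to 50 after 1 start per gene as the sequence table sets it) were searched on both strands for CCCNNGGG, a core of the sites of EBF factors, and CAGGTG, an E-box of the E2A class. Windows were available for 7 of the 10 members; Pax5, Ms4a1 and Fcer2 had none, and for Igll1, Ebf1 and Vpreb3 the start of the window is not the gene start of the RefSeq gene table. CCCNNGGG was in 2 of the 7, Dntt and Igll1, and in 12.4% of all 33469 windows, and CAGGTG was in 3 of the 7, Dntt, Rag1 and Vpreb1, and in 18.8% of all windows. These are matches of letters and not measured binding. The first pair of sequences holds the 40 bases around CCCNNGGG, in capitals, in Dntt (chr1:249805690-249805729, plus strand) and Igll1 (chr11:97642950-97642989, plus strand). The other pair is from the near copies Vpreb1 (RefSeq Vpreb1a, chr11:97631048-97631173, plus strand) and Vpreb2 (RefSeq Vpreb1b, chr11:96514529-96514654, minus strand), shown because they were described together: their windows share a stretch of 126 bases, at -126 to -1 from the start in Vpreb1 and -250 to -125 in Vpreb2, identical at 124 positions (98.4%), with CAGGTG in capitals. The stretch was cut at the window edge of Vpreb2 and at the start of Vpreb1. Its length is therefore not the extent of their likeness. The transcripts of Vpreb1 and Vpreb2, from which the UMIs come, were not compared. Igll1 lies near Vpreb1 on the same chromosome.
Dntt: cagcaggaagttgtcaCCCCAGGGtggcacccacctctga
Igll1: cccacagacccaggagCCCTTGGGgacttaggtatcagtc
Vpreb1: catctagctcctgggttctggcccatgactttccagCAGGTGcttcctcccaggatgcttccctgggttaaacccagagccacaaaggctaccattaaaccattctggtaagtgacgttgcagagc
Vpreb2: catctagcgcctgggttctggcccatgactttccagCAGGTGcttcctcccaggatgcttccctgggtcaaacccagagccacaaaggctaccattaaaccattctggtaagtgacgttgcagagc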

How the data were processed

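The signal values of 3 single-cell 3' RNA libraries, each pooled from 16 condyles, were deposited by the authors as mean counts of each gene in each cluster, scaled so that every cluster of a library has the same sum; the submitters list Cell Ranger 7.0, STAR and Seurat 4.0.1, and how doublets were treated is not given in the sources used here. Dividing each mean by the smallest positive mean of its column gave whole numbers, within 1e-06, for 100.0% of values, taken as UMIs, with 77668015 in sham, 92629658 in UAC and 97255383 in UAC with miR-330. The deposited p-values and log2 fold changes were not used. The 10 leading genes of a cluster had the highest recomputed ratio of its level to that in the rest of the library. That ratio had 1 UMI added and took genes with 10 UMIs or more in the cluster. Ratios between libraries were recomputed with 0.5 UMI added. A count model was not run because each condition has 1 library. Intervals are exact Poisson or binomial, and the code was tested on simulated data.

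All 10 members were named, with any gene of the fixed lists and the 3 genes most like each member. Members and lists were chosen with earlier results of these data known. Of 150 list genes, 143 were listed, 2 of them by synonym (Cd79a as Cd79al, nearly without UMIs, and Icosl as Icoslg), and 7 were not listed. The builds listed for the files are GRCh38 and mm10, while the identifiers are of the rat, so no coordinates of the files were used. Python 3.11.15, numpy 2.4.6, pandas 2.3.3, SciPy 1.17.1 and matplotlib 3.10.9 were used.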

Additional observations from a re-analysis of the deposited data

How the results depend on the processing

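Each condition is 1 library of pooled rats, so differences between animals, sides and sexes cannot be told apart from the conditions. No paired analysis was possible because each condition has 1 library. Clusters were made from all genes of the cells, members included, and levels along the order are descriptions. No called value changed sign. Of 360 log2 ratios of single members under the alternatives, 12 changed sign, 7 of them with unscaled means.

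Over all clusters, the unscaled deposited means gave 2 members higher and 0 lower in UAC against sham, and 5 higher with miR-330 AAV; this scaling adds 0.20 and 0.24 to every log2 ratio, which accounts for the shift, and takes the share of higher among called genes from 54.1% to 78.0% and from 77.3% to 95.7% (B-marker clusters: 77.7% to 91.1% and 72.8% to 94.6%). Of all genes, 1483 of 14235 and 3822 of 14485 were higher with unscaled means. A fold of 5/4 gave 2 higher and 5 lower, and 5 higher with miR-330 AAV. Of all genes it gave 1582 higher and 1627 lower, and 3805 higher with miR-330 AAV. A fold of 2 gave 0 lower in UAC against sham and 0 higher with miR-330 AAV. Of all genes it gave 267 lower and 333 higher in these comparisons.

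Within the B-marker clusters, unscaled means gave 2 higher in UAC against sham and 3 higher with miR-330 AAV. Of all genes, 1203 of 12851 and 2845 of 13224 were then higher. A fold of 5/4 gave 2 higher and 3 lower, then 3 higher and 2 lower with miR-330 AAV. Of all genes it gave 1299 higher and 506 lower, then 2743 higher and 1344 lower. A fold of 2 gave 0 higher with miR-330 AAV, where 343 genes were higher. In UAC against sham, 1 member (Igll1) was lower without the genes of mitochondria, ribosomal proteins, immunoglobulins and haemoglobins. Of all genes, 198 of 12734 were then lower. Igll1 was also lower without the most cycling cluster, where 202 of 12492 genes were lower. With miR-330 AAV the 1 member higher was then Rag2 and not Ms4a1, where 1077 of 13009 genes were higher. This leaves out UAC 5 but keeps miR-330 12, its mutual best match, so unlike clusters are compared. Clusters with 7 of 10 markers gave 2 higher (Vpreb1, Fcer2), where 631 of 12663 genes were higher. Without clusters led by another class 2 were lower (Dntt, Igll1), where 324 of 12716 genes were lower. The uncalled log2 ratio of Dntt went from -0.35 to 0.10 in the former. That of Vpreb1 went from 0.53 to -0.07 in the latter. The next alternatives were chosen after seeing the data. Without clusters with Klf1 at 30 CPM or more (the next-lowest of each library and miR-330 5), Igll1 was lower in UAC against sham. Rag2 and Ms4a1 were then higher with miR-330 AAV. Of all genes, 217 of 12328 were lower and 887 of 12508 higher. Without those with Siglech at 30 CPM or more, 0 were higher in UAC against sham, where 432 of 12776 genes were higher. Without the cluster highest in the index, 2 were higher and 1 lower in UAC against sham. This leaves out sham 1 and UAC 14 but keeps UAC 2, the mutual best match of sham 1. Sham 1 held 88.6% of the Ms4a1 UMIs of sham, so unlike clusters are compared. Where construction does not show it, the cause was not tested.

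The share of UMIs in B-marker clusters, in sham, UAC and UAC with miR-330, was 67.1%, 61.7% and 64.6% with 7 of 10 markers, 64.9%, 61.7% and 67.5% without clusters led by another class, and 57.4%, 50.4% and 52.5% without Klf1 clusters; markers at 100 CPM moved only UAC with miR-330, to 68.3%. The late list alone kept 4 of 10, 2 of 10 and 5 of 12 clusters at their rank; the early list alone kept 7 of 12 in UAC with miR-330; without class II genes 6 of 10 were kept in sham and 6 of 12 in UAC with miR-330. The 2 lowest clusters stayed the lowest except by the late list alone in sham (1 of 2), and the highest stayed except by the early list alone in UAC. Of all values for counts of members, shares and ranks, 56 were the same and 40 moved, each given above; of the log2 ratios of single members and the checks on both ends of the order, 272 were the same and 112 moved.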
